A study of Mus musculus with 8 samples.

Results

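The genes described here encode chromatin remodellers and bromodomain proteins. They were the protein-coding genes of GENCODE release M21 whose symbols begin with Chd, Arid, Brd or Baz followed by a digit, or with Smarc, and 45 of 22028 protein-coding genes met this rule. The peaks used were all peaks of either list whose exon blocks shared at least 1 base with the exons of such a gene on its own strand. There were 269 such peaks among the 18895 peaks of the DMSO list and 195 among the 13001 peaks of the Dox list. The gene Brd3os met the rule by its symbol alone, being a gene on the strand opposite to Brd3, and it carried no peak.

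The data were m6A peaks from methylated RNA immunoprecipitation sequencing (MeRIP-seq) of E14, a line of mouse embryonic stem cells (ESCs). In MeRIP-seq, fragments of poly(A) RNA that carry N6-methyladenosine are pulled down with an antibody (IP) and sequenced beside unselected fragments (input). There were 8 libraries, an IP and an input from each of 2 replicates per treatment, and cells had been kept for 24 h in the solvent DMSO or in doxycycline (Dox). All of these cells carry, as the methods describe them, a Dox-inducible Dux transgene together with a tdTomato reporter driven by the Mervl promoter, so that Dox turns on Dux, a factor of the early embryo that is known to bring ESCs into a 2C-like state. The DMSO cells thus hold the same transgenes without induction, no group of cells without the transgene was analysed here, and the libraries were made from whole cultures in which only some cells may have changed state. In such bulk RNA, fewer cells of a type and less RNA per cell cannot be told apart. The deposited files gave 1 peak list per treatment, so no replicate spread could be computed and no test between treatments was made. Peaks were found on all 5 pluripotency genes examined (Nanog, Sox2, Pou5f1, Esrrb and Sall4) in both lists. Of 5 genes of the 2C-like state, Zscan4c and Zscan4d carried peaks in the DMSO list, and all 5 (also Usp17la, Tcstv1 and Duxf3) carried peaks in the Dox list. Zscan4c had 4 DMSO and 3 Dox peaks, and Zscan4d had 1 and 4. Near-identical copies elsewhere in the genome were not searched for with the peaks of these 5 genes. Duxf3 is the annotated name of Dux, and RNA of the induced Dux transgene was not told apart from that of the cells' own gene.

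Remodellers use ATP to slide, evict or exchange nucleosomes. The BAF (SWI/SNF), ISWI, CHD and INO80 families share an ATPase motor of the SNF2 type, and their partner subunits carry bromodomains, which bind acetylated lysine, or ARID domains, which bind DNA. In ESCs these enzymes keep pluripotency genes open and restrain others, and m6A, a mark deposited on nascent mRNA mostly at the consensus DRACH (where R stands for A or G, H excludes G and D excludes C), affects the splicing, translation and decay of mRNAs.

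The sequences of the best-scoring member peaks are shown first, because they are the sites at which the deposited evidence was strongest. They are from the DMSO peaks with the highest scores, 1 per gene, that were overlapped by a Dox peak, were at most 300 nt long, lay to at least 90% in coding sequence without touching an untranslated region of the transcript used, and had no near-identical copy elsewhere in the genome. The score is the value that the authors' lists give for a peak, read here as a −log10 p-value. Sequences are 5′ to 3′ on the gene's strand of GRCm38 (mm10), the blocks of spliced peaks are joined, and capitals mark GGAC, the most common form of the m6A consensus. The exon given for a peak is the one that holds its middle base. The remaining bases of a peak could lie outside the exons of the transcript used, and such bases are printed too. Examples stand at the 3′ end of the Chd4 and Brd2 sequences and at the 5′ end of the Arid1a sequence.
Brd3: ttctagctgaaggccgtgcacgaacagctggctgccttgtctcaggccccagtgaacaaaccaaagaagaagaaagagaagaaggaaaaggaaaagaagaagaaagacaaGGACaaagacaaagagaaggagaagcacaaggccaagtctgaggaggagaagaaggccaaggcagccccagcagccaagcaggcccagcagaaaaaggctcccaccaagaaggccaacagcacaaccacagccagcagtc
Chd4: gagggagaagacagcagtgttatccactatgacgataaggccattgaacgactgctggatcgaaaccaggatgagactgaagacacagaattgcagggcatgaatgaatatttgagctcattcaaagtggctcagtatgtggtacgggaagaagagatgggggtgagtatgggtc
Brd2: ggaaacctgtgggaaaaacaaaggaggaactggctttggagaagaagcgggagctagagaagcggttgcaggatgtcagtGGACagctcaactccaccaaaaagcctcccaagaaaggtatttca
Arid1a: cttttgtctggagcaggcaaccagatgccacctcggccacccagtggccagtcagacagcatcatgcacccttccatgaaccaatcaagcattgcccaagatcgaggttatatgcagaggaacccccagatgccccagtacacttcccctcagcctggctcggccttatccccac
The Brd3 peak lay at chr2:27450629-27453080 on the minus strand, had a score of 33.3 and covered 250 nt around exon 10. The Chd4 peak lay at chr6:125114305-125114479 on the plus strand in exon 25 and had a score of 22.1. The Brd2 peak, at chr17:34112848-34112972 on the minus strand, lay in exon 12 and had a score of 18.9. The Arid1a peak, at chr4:133694762-133695677 on the minus strand, lay in exon 6 and had a score of 17.0. These sequences differed in motif content: GGAC occurred once each in the Brd3 and Brd2 peaks and was not found in those of Chd4 and Arid1a. The Brd3 peak also overlapped the annotated microRNA gene Mir7578, and in all 6 DMSO and 5 Dox peaks of member genes shared bases with another gene on the same strand.

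m6A peaks were common on the remodeller genes in both treatments. Of the 45 members, 35 carried at least 1 DMSO peak (77.8%, Wilson 95% interval 63.7 to 87.5%) and 34 carried at least 1 Dox peak (75.6%, 61.3 to 85.8%), where the shares of all protein-coding genes were 27.5% for DMSO and 22.1% for Dox. Member transcripts are long, with a median of 5717 nt. Among protein-coding genes with a transcript between 3625 and 7581 nt, the quartiles of the members, 38.4% carried a peak of the DMSO list and 31.0% of the Dox list, against 82.6% (19 of 23) of the members of that length in each list. All intervals given here cover counting error only, and neighbouring peaks are not independent of each other. The level of the mRNAs was not analysed here, and its part in where peaks were called was not tested.

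Members with peaks carried many of them. The median was 7 DMSO peaks (quartiles 5 to 10.5) and 5 Dox peaks (2.25 to 8.75) per member with a peak, against 2 peaks in each list over all protein-coding genes with a peak. Per kilobase of transcript the medians were 1.13 and 0.822 peaks, against 0.778 and 0.673 over all protein-coding genes with a peak. At least 5 DMSO peaks were found on 27 of 45 members (60.0%) and on 5.70% of all protein-coding genes.

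**Figure D1:**
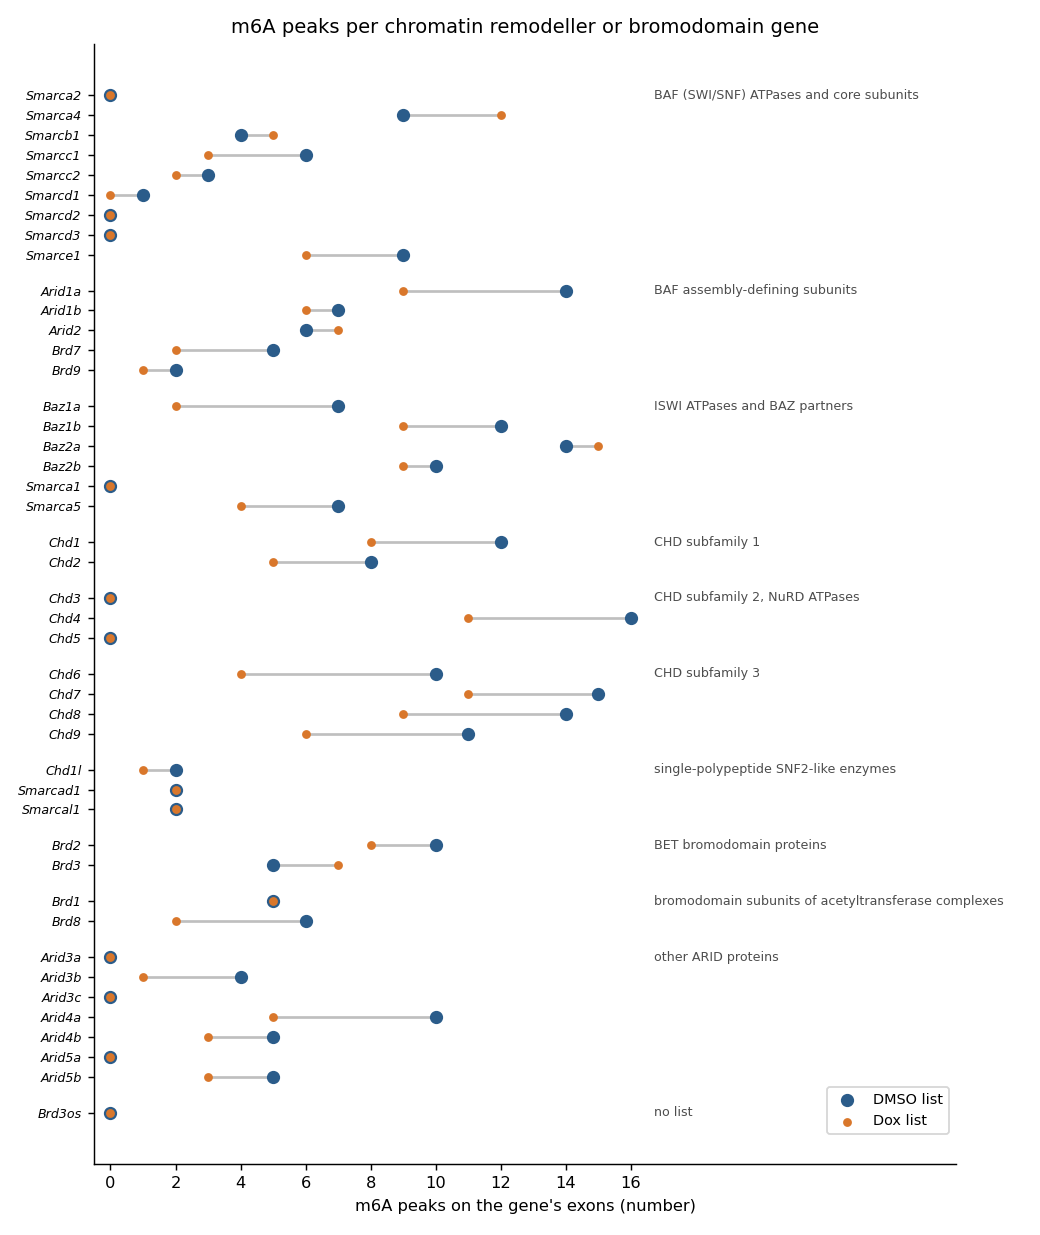
Number of m6A peaks on the exons of 44 member genes (horizontal axis) for DMSO (large blue points) and Dox (small orange points), with genes ordered by family and a grey line joining the lists. The highest counts are those of Chd4 with 16 DMSO peaks and Baz2a with 15 Dox peaks, and 10 genes lie at 0 in both lists.

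Among the subunits of the BAF complexes, the motor and its paralog differed in the number of peaks called. Whether the mRNAs of members without peaks were present in these cells was not analysed here. Smarca4 (BRG1, the BAF ATPase of ESCs) carried 9 DMSO and 12 Dox peaks, and Smarca2 (BRM, the alternative ATPase) carried none. The core subunits Smarcb1, Smarcc1, Smarcc2 and Smarce1 carried 4, 6, 3 and 9 DMSO peaks and 5, 3, 2 and 6 Dox peaks. Of the Smarcd scaffold subunits, Smarcd1 had 1 DMSO peak and no Dox peak, and Smarcd2 and Smarcd3 had none. Smarcd1 was the only member with peaks in 1 list only, where 21.5% of protein-coding genes with any peak had them in the DMSO list alone and 2.40% in the Dox list alone. No member had peaks in the Dox list only. The Smarcd1 peak covered 100 nt in exon 2 at chr15:99703116-99703215 on the plus strand with a score of 10.7, near the lower bound of the list, and it is shown with GGAC in capitals.
Smarcd1: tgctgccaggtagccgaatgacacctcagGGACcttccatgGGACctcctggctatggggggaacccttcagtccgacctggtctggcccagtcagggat

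The subunits that define a BAF assembly all carried peaks in both lists. Arid1a, which defines canonical BAF together with Arid1b, had 14 DMSO and 9 Dox peaks, and Arid1b had 7 and 6. Arid2, which defines the PBAF assembly, had 6 and 7. Brd7, a bromodomain subunit of PBAF, had 5 and 2, and Brd9, that of non-canonical BAF, had 2 and 1. Arid1a was the most covered member, with 6025 exon bases under DMSO peaks and 5225 under Dox peaks. On its first exon, of 1143 nt, 1093 bases lay under 3 DMSO peaks and all bases under a single Dox peak. A spliced peak of 2175 nt for DMSO and of 2125 nt for Dox ran from exon 18 into the last exon, exon 20. On Arid2 all Dox peaks and 5 of 6 DMSO peaks lay in exon 15, which is 2843 nt long, with 1925 of its bases under DMSO peaks and 1300 under Dox peaks.

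The ISWI motor Smarca5 (SNF2H) carried 7 DMSO and 4 Dox peaks, and its paralog Smarca1 (SNF2L) carried none. These Smarca5 counts are uncertain, because 6 of the 7 DMSO peaks and all 4 Dox peaks matched another place in the genome over at least 90% of their length at 98% identity or more. The same held for 5 of 9 DMSO and 4 of 6 Dox peaks of Smarce1 and for 1 DMSO peak of Smarcc1. The BAZ proteins, bromodomain partners of the ISWI motors, all carried peaks in both lists. Baz2a (TIP5, of the nucleolar complex NoRC) had 14 DMSO and 15 Dox peaks, Baz1b (WSTF) 12 and 9, Baz2b 10 and 9, and Baz1a (ACF1) 7 and 2. Several DMSO peaks of Baz2a were divided in the Dox list. Its exon 20 had 595 of 632 nt under 2 DMSO peaks and 195 nt under 5 Dox peaks. Baz1b held the same region in both lists, with 1568 of the 1705 nt of exon 7 under DMSO peaks and 1418 under Dox peaks. On Baz1a, exons 18 and 24, of 600 and 461 nt, held 100 and 139 nt under DMSO peaks and none under Dox peaks.

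Among the CHD remodellers, Chd4, the NuRD ATPase of ESCs, had the most DMSO peaks of any member. It carried 16 DMSO and 11 Dox peaks, and its paralogs Chd3 and Chd5 carried none. Chd1 and Chd2, which act at transcribed genes, had 12 and 8 DMSO peaks and 8 and 5 Dox peaks. The CHD7-like enzymes Chd6, Chd7, Chd8 and Chd9 had 10, 15, 14 and 11 DMSO peaks and 4, 11, 9 and 6 Dox peaks, and 28 of their 50 DMSO peaks (56.0%) met a Dox peak, close to the 57.1% over all protein-coding genes. All 30 of their Dox peaks met a DMSO peak, against 92.8% over all protein-coding genes. Chd9 had the largest difference in covered bases of any member, 2275 nt under DMSO and 625 nt under Dox peaks. Its exon 3, of 1614 nt, held 3 DMSO peaks of 100, 25 and 150 nt and no Dox peak. Among the single-polypeptide enzymes, Chd1l (ALC1) had 2 DMSO peaks and 1 Dox peak, and Smarcad1 and Smarcal1, which act in replication and repair, had 2 in each list.

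The BET proteins, which carry a tandem of bromodomains and bind acetylated histones at active promoters, include Brd2 and Brd3. Brd2 had 10 DMSO and 8 Dox peaks, and 8 of its DMSO peaks met a Dox peak. Brd3 had 5 DMSO and 7 Dox peaks, and all of them were shared. Its exons held 1719 bases under DMSO peaks and 1344 under Dox peaks. Brd2 was the only member with peaks of over 100 nt whose middle lay in the 5′ untranslated region, at 275 and 525 nt for DMSO and 850 nt for Dox.

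The remaining bromodomain and ARID genes carried 0 to 10 DMSO and 0 to 5 Dox peaks. Brd1, a subunit of the HBO1 and MOZ acetyltransferase complexes, had 5 in each list, and Brd8, a subunit of TIP60, had 6 DMSO and 2 Dox peaks. Of the ARID genes outside BAF, Arid4a and Arid4b (partners of the SIN3 corepressor) had 10 and 5 DMSO peaks and 5 and 3 Dox peaks, Arid5b had 5 and 3, Arid3b had 4 and 1, and Arid3a, Arid3c and Arid5a had none. In this ARID group 10 of 24 DMSO peaks (41.7%) met a Dox peak, against 63.6% over all members and 57.1% over all protein-coding genes. This was the lowest such share among the groups of members. It rests on few peaks, and no interval was computed for it. Arid5b carried the longest peak of any member, 3000 nt in the DMSO list, which the Dox list gave as a peak of 2575 nt and a shorter one.

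Nearly all Dox peaks on member genes lay at sites that the DMSO list held too. A DMSO counterpart was found for 188 of the 195 Dox peaks (96.4%, 92.8 to 98.3%) and not for 7, where 7.17% of the Dox peaks on all protein-coding genes were not overlapped. A Dox counterpart was found for 171 of the 269 DMSO peaks (63.6%, 57.7 to 69.1%) and not for 98, where 42.9% of the DMSO peaks on all protein-coding genes were not overlapped. The DMSO peaks without a Dox counterpart were short, with a median of 50 nt (quartiles 25 to 93.8), against 250 nt (162.5 to 400) for those with one. Every member DMSO peak of 325 nt or more was overlapped (65 of 65), against 8 of 65 peaks of 25 to 50 nt. Overlap was also more frequent at higher scores, at 9 of 49 member DMSO peaks below the lower quartile of the DMSO list and 69 of 77 above its upper quartile. Over all protein-coding genes these shares were 20.8% and 82.2%.

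The 7 Dox-only peaks lay on Brd1 (50 and 25 nt), Arid1b (175 nt), Smarcb1 (50 nt), Brd2, Baz2b and Smarca4 (25 nt each). Their scores were between 10.6 and 11.4, below the median of 11.6 of the member Dox peaks. The longest and the best-scoring of them, both coding, are shown with GGAC in capitals.
Brd2: ccactggaaccaGGACctctaccag
Arid1b: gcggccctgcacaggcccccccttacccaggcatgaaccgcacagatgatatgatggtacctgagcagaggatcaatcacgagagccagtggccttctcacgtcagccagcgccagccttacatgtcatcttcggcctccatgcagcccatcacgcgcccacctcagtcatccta
The Arid1b peak lay at chr17:5336859-5337033 on the plus strand in exon 18 with a score of 10.9, and the Brd2 peak at chr17:34114114-34114138 on the minus strand in exon 9 with a score of 11.4. Only the shorter of them holds GGAC.

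Where peaks were shared, those of the Dox list were mostly narrower. Among 141 member pairs in which 1 DMSO peak overlapped 1 Dox peak and neither overlapped another, the DMSO peak was longer in 104 (73.8%, 65.9 to 80.3%), the Dox peak was longer in 12, and both were equal in 25. Their median lengths were 250 nt for DMSO and 150 nt for Dox, and the Dox peak lay wholly inside the DMSO peak in 126 pairs (89.4%). Over the 8785 such pairs on all protein-coding genes the DMSO peak was longer in 68.9% and the Dox peak lay wholly inside it in 84.1%. In 23 member pairs (16.3%) the extents were identical to the base, among them 3 on Chd4 and 3 on Chd8. A further 19 member DMSO peaks overlapped more than 1 Dox peak, and 5 Dox peaks overlapped more than 1 DMSO peak, among them peaks on Arid1a, Brd2, Chd4 and Smarce1.

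The narrowing is shown on coding DMSO peaks of at most 300 nt in such pairs with the largest difference in length, 1 per gene. Here capitals mark the bases that the Dox peak covered too.
Chd7: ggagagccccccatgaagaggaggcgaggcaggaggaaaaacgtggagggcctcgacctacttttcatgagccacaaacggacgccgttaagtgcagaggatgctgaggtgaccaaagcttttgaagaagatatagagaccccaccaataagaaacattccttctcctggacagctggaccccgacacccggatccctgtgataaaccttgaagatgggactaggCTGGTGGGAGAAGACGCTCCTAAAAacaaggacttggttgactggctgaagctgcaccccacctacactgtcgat
Arid4a: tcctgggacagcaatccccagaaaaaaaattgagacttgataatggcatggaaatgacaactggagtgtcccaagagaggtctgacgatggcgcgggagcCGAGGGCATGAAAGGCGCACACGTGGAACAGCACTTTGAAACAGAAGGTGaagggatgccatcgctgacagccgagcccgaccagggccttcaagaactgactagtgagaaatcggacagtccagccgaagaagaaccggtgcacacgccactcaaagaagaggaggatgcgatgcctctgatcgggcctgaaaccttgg
Chd9: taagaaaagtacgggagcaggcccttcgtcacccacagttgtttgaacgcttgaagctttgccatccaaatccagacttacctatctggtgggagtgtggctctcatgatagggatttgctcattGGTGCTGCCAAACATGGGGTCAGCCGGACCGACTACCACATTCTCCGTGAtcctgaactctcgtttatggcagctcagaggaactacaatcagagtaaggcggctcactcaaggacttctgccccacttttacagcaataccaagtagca
Smarcb1: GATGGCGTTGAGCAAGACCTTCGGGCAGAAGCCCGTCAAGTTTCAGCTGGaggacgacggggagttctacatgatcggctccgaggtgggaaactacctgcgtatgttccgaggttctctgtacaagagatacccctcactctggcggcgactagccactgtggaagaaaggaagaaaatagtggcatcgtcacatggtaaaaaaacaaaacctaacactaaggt
The Chd7 peak (chr4:8859391-8862693, plus strand, 300 nt) was left with 25 nt in the Dox list, and none of its 5 GGAC motifs lay in them. The Arid4a peak (chr12:71075431-71075730, plus strand, 300 nt) was left with 50 nt, which held none of its 2 GGAC motifs. The Chd9 peak (chr8:91033417-91033691, plus strand, 275 nt) was left with 50 nt that held 1 of 2 GGAC motifs, and the Smarcb1 peak (chr10:75916572-75921387, minus strand, 225 nt) with 50 nt that did not hold its 1 GGAC motif.

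Summed over exons, every member with peaks in both lists had more bases under DMSO peaks. This held for 34 of 34 members, where 85.7% of the 4730 protein-coding genes with peaks in both lists had more bases under DMSO peaks. By number of peaks, 26 of the 34 had more DMSO peaks, where 49.4% of these genes did, 5 had more Dox peaks (Arid2, Baz2a, Brd3, Smarca4 and Smarcb1) and 3 had as many (Brd1, Smarcad1 and Smarcal1). In all, 62844 bases of member exons lay under DMSO peaks and 42894 under Dox peaks, a ratio of 1.47, and the ratio over all protein-coding genes was also 1.47. When each list was limited to its 13001 best-scoring peaks, 33 of 34 members still had more bases under DMSO peaks and none had more under Dox peaks, against 76.3% and 15.7% of protein-coding genes. Members with peaks carried more of them than most genes, and these shares were not compared at a like number of peaks per gene. The read depth of the libraries was not analysed here, and its part in the number and length of peaks was not tested.

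**Figure D2:**
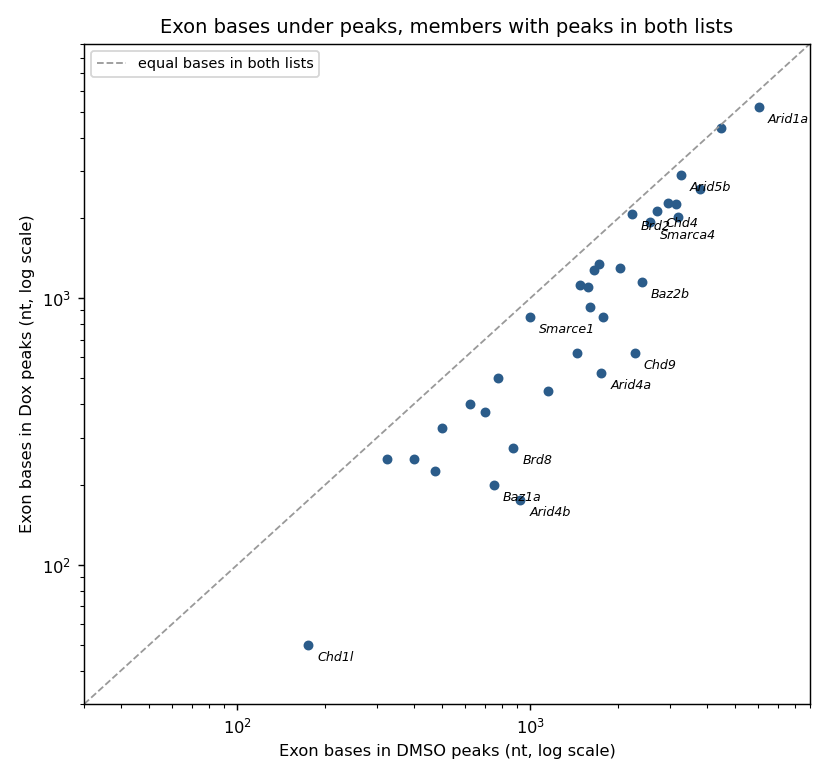
Exon bases under DMSO peaks (horizontal axis, nt, log scale) and under Dox peaks (vertical axis, nt, log scale) for the 34 members with peaks in both lists, 1 point per gene, with the dashed line at equal values. All points lie below the line, Brd2 (2225 and 2075 nt) close to it and Arid4b (925 and 175 nt) far from it.

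The largest differences in covered bases were those of Chd9 (1650 nt more under DMSO peaks), Baz2b (1250 nt), Baz2a and Arid4a (1225 nt each). The relative difference was large for Arid4b, whose exon 20 of 1215 nt had 451 bases under DMSO peaks and 25 under Dox peaks. Brd2, with 2225 and 2075 nt, differed by 150 nt. The Chd4 peak over the stop codon, 525 nt long, and a spliced Smarce1 peak that ended in the last exon, 450 nt long, had the same extent in both lists. The Smarce1 peak was among those with a near-identical place elsewhere in the genome, so the origin of its reads is uncertain.

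**Figure D3:**
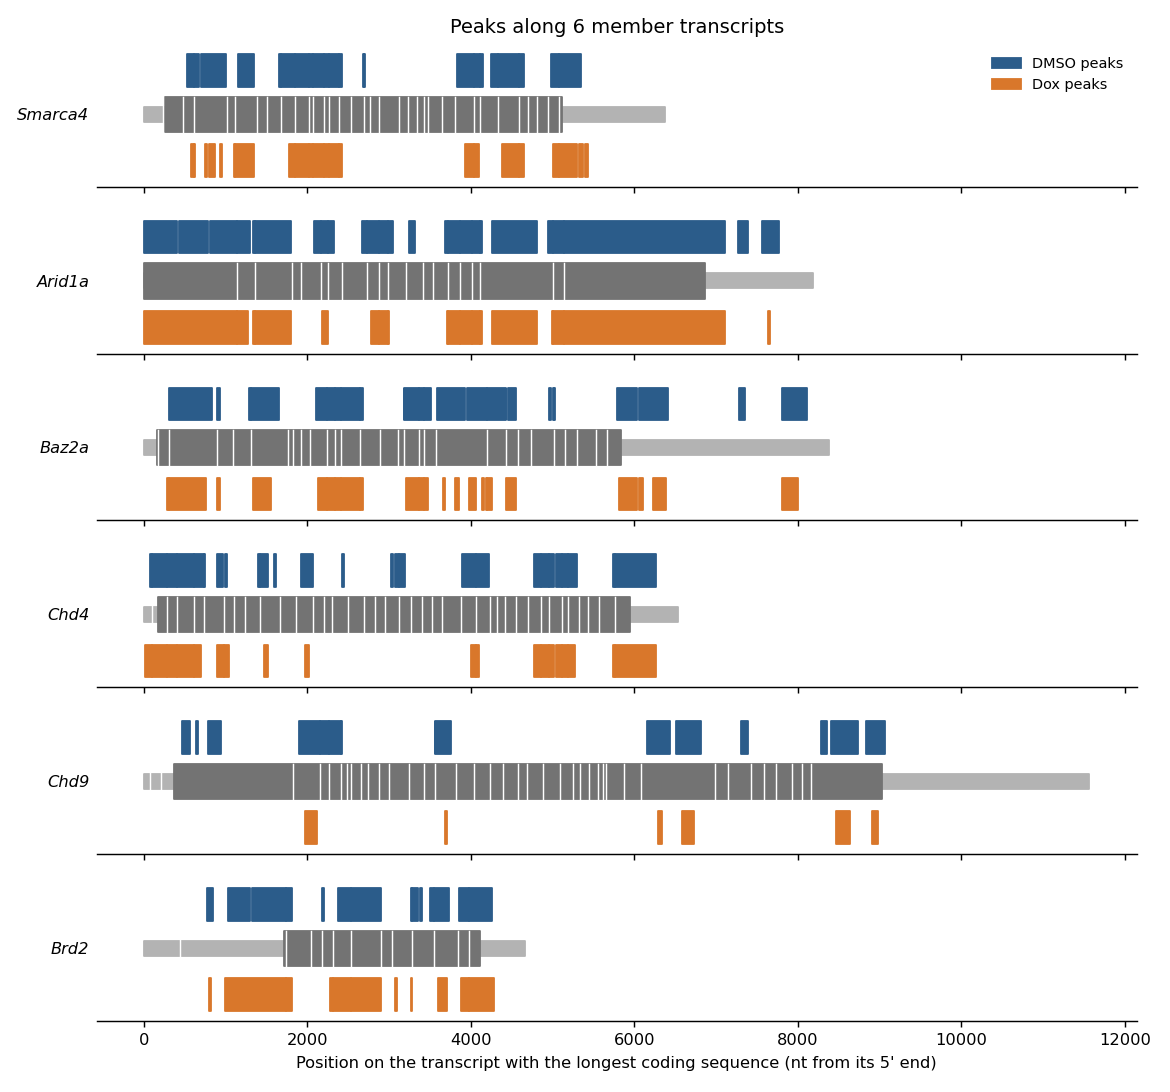
DMSO peaks (blue, above) and Dox peaks (orange, below) along the transcripts of Smarca4, Arid1a, Baz2a, Chd4, Chd9 and Brd2, drawn to scale in nt from the 5′ end, with coding sequence as the thick grey bar, untranslated regions as the thin bar and exon borders as white lines. The 5′ untranslated region of Brd2 holds peaks in both lists, Baz2a exon 20 is divided into short Dox peaks, and the 3 DMSO peaks at the 5′ end of Chd9 have no Dox counterpart.

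Peaks on remodeller transcripts lay mainly in coding sequence. The middle base was coding in 88.5% of 261 DMSO peaks that could be placed on the transcript used (84.1 to 91.8%) and in 85.4% of 192 Dox peaks (79.7 to 89.7%). Over all protein-coding genes these shares were 72.3% and 71.4%. Coding sequence made up 70.5% of the transcripts of members with a DMSO peak and 53.9% of those of all protein-coding genes with one. Within 200 nt of the stop codon lay the middle of 8.43% of member DMSO peaks (5.63 to 12.4%) and of 10.9% of member Dox peaks (7.27 to 16.1%), against 22.9% and 25.1% over all protein-coding genes. That window held 6.56% of the bases of member transcripts with a DMSO peak and 10.2% of those of all such genes.

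Counted per gene, the share of members with a peak near the stop codon was close to that of all protein-coding genes with a peak. Members with peaks carried more of them, and the shares were not compared at a like number of peaks per gene. A peak with its middle in that window was found on 21 of 35 members with DMSO peaks (60.0%, 43.6 to 74.4%) and on 20 of 34 with Dox peaks (58.8%, 42.2 to 73.6%), against 59.0% and 56.1% of all protein-coding genes with a peak. Arid2 and Arid4a had such a peak in the DMSO list only, and Chd1 had one in the Dox list only, within a spliced peak of 600 nt for DMSO and 500 nt for Dox that covered the same 412 bases of the last exon in both lists. The middle of a peak moves when its length changes.

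Long inner exons were the most densely covered part of these transcripts. Of the exon bases of members with a DMSO peak, 58.6% of those in inner exons of 400 nt or more lay under DMSO peaks, against 25.6% in shorter inner exons, 24.0% in last exons and 11.7% in first exons. In the Dox list these shares were 41.5%, 15.5%, 18.5% and 12.6%. Over all protein-coding genes with a DMSO peak, the DMSO shares were 43.1%, 10.3%, 14.4% and 9.12%, so short inner exons showed the largest relative excess in the members. Of the 37 long inner exons of the members, 31 carried a DMSO peak and 28 a Dox peak. These 37 include exons of members without any peak (Arid3a, Arid5a and Smarca2). The like count over all protein-coding genes is not given here, so it cannot be said whether members differ in it. Peaks that span more than 1 exon made up 39.0% of member DMSO peaks (33.4 to 45.0%) and 37.9% of member Dox peaks (31.4 to 44.9%), against 26.6% and 21.8% over all protein-coding genes.

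**Figure D4:**
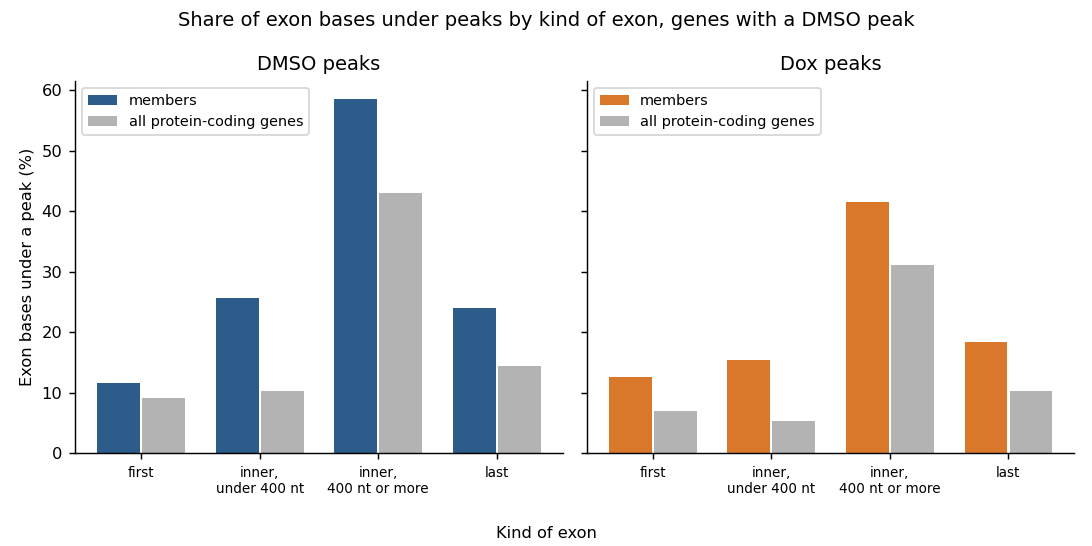
Percent of exon bases under DMSO peaks (left) and Dox peaks (right) in first exons, inner exons under 400 nt, inner exons of 400 nt or more and last exons, for the 35 members with a DMSO peak (coloured bars) and all 6064 protein-coding genes with a DMSO peak (grey bars). Inner exons of 400 nt or more stand highest in each panel, at 58.6% for the DMSO peaks and 41.5% for the Dox peaks of the members.

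The motif GGAC was present in 152 of 269 member DMSO peaks (56.5%, 50.5 to 62.3%) and in 111 of 195 member Dox peaks (56.9%, 49.9 to 63.7%), against 54.1% and 55.9% over all protein-coding genes. Presence followed length, from 13.8% of member DMSO peaks of 25 to 50 nt to 93.8% of those of 325 nt or more. On the transcripts of members with a DMSO peak, GGAC occurred 5.65 times per kilobase under DMSO peaks and 3.80 times per kilobase elsewhere, and on those with a Dox peak 5.73 and 3.95 times. Its reverse complement GTCC, read on the same strand as a comparison, occurred 3.75 and 3.27 times per kilobase under and outside DMSO peaks. Over all protein-coding genes GGAC occurred 6.27 and 3.85 times per kilobase under and outside DMSO peaks, so motif density in the member peaks lay below that average. The extended form GGACT was found in 19.0% of member DMSO peaks (14.7 to 24.1%), against 23.7% over all protein-coding genes.

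The scores of shared sites stood at different percentiles of the lists, in both directions. Each score was expressed as the percent of its own list with a lower score. The Dox percentile was the higher in 48 of the 141 pairs (34.0%, 26.7 to 42.2%), against 38.0% of the pairs on all protein-coding genes. On Chd4 a peak of 225 nt over exon 2, identical in both lists, had a score of 11.1 in the DMSO list (percentile 32.6) and of 18.0 in the Dox list (percentile 96.2). On the same gene a spliced peak of 250 nt centred on exon 32, also identical in both lists, had a score of 19.1 (percentile 96.0) in the DMSO list and of 11.1 (percentile 35.7) in the Dox list. The lists differ in size, and how far percentiles differ between replicates could not be computed. The best member peak of the Dox list, on Smarcc1 at chr9:110167660-110183005 with a score of 20.3 (percentile 97.4), overlapped a DMSO peak with a score of 11.1 (percentile 31.6). The 75-nt spliced peak of Chd1 centred on exon 24 had a score of 20.9 for DMSO (percentile 97.2) and of 11.0 for Dox (percentile 30.0). Of the 23 identical pairs, 19 had the lower percentile in the Dox list (82.6%, 62.9 to 93.0%), against 70.8% of 1530 identical pairs over all protein-coding genes.

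**Figure D5:**
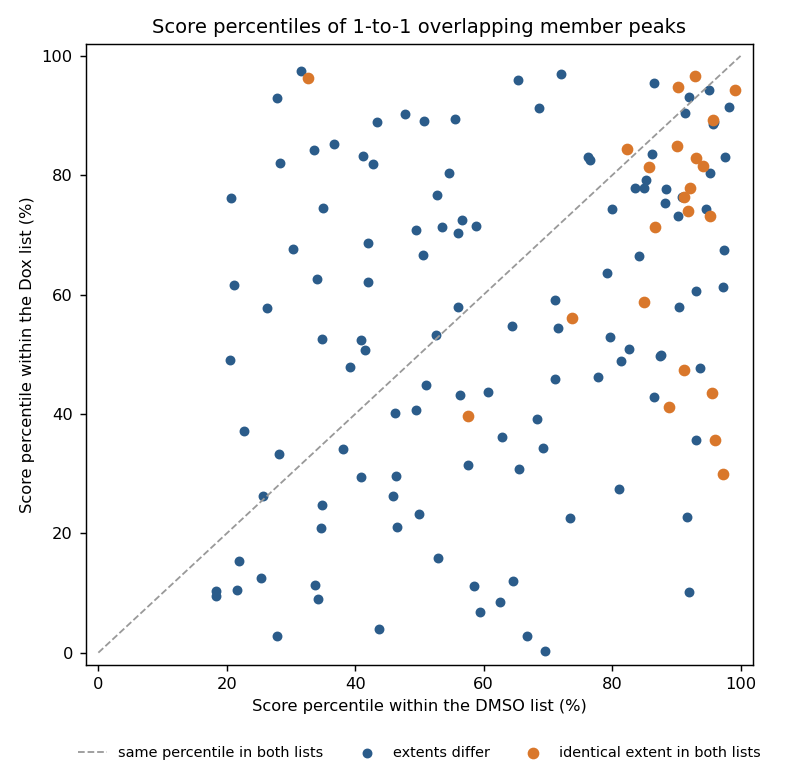
Score percentile within the DMSO list (horizontal axis, %) and within the Dox list (vertical axis, %) of the 141 member pairs of 1 DMSO and 1 Dox peak, 1 point per pair, with pairs of identical extent in orange and the dashed line at equal percentiles. The points spread widely on both sides of the line, and 48 of them lie above it.

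Other genes of the same complexes and families also carried peaks. Peaks of the DMSO list were found on 11 of 17 other BAF subunits, 10 of 12 other NuRD subunits, 4 of 4 other ISWI partners, 14 of 18 subunits of the INO80, SRCAP and TIP60 remodellers, 18 of 24 other bromodomain genes and 12 of 13 other SNF2-family ATPases, where the share of all protein-coding genes was 27.5%. In the Dox list these counts were 8, 10, 4, 12, 17 and 8, where that share was 22.1%, and no gene of these lists had a peak in the Dox list only. Within each list of genes, the gene with the most peaks was Bicral (a subunit of non-canonical BAF, 7 DMSO and 3 Dox peaks), Gatad2a (a NuRD scaffold, 8 and 5), Cecr2 (a bromodomain partner of ISWI, 13 and 10), Srcap (the motor that deposits the histone variant H2A.Z, 18 and 13), Kmt2a (a histone H3 lysine methyltransferase, 21 and 20) and Atrx (which deposits histone H3.3 at heterochromatin, 8 and 10) in the DMSO list. In the Dox list Actb (actin, a BAF component, 5 DMSO and 5 Dox peaks), Hdac1 (the NuRD deacetylase, 4 and 6) and Bptf (the reader subunit of the ISWI complex NURF, 11 and 15) took the place of Bicral, Gatad2a and Cecr2. Near-identical copies elsewhere in the genome were not searched for with the peaks of these other genes.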

How the data were processed

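The authors ran MeRIP-seq on poly(A) RNA fragmented to about 150 nt and pulled down with an anti-m6A antibody, with strand-specific libraries. Per the labels and the methods, reads were filtered with fastp 0.19.4 and aligned to mm10 with HISAT2 2.2.1, and the IP libraries were set against the inputs in exomePeak2, whose version, settings and handling of replicates are not given in the sources used here. The authors deposited 1 peak list per treatment, with exon blocks and a value per peak that was read as the −log10 p-value (at least 10 in every peak, adjustment not stated). Read depth is unknown, as the lists hold no counts.

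Genes and transcripts were those of GENCODE M21 on GRCm38, and each gene was represented by its transcript with the longest coding sequence. Peaks overlapped when they shared at least 1 base on the same strand. Motifs were read from the genome on the peak's strand. Near-identical places were found with blastn 2.17.0 (at least 90% of the peak at 98% identity). Python 3.11.15, numpy 2.4.6 and pysam 0.24.0 were used, and the overlap and position steps were tested on simulated peaks. Shares carry Wilson 95% intervals, which cover counting error only. Replicates could not be compared, and no test between treatments was made. Alternatives were a score threshold, equal list sizes, stricter overlaps, other stop codon windows, DRACH, and leaving out near-identical, multi-gene or short peaks. Genes were named by rule: those with peaks in 1 list only, with the most peaks, the best scores or the largest difference in covered bases, and a reference member per group. The members, gene lists and rules were chosen with earlier results of these data known. The values of 1 member gene and the sequence of 1 further peak are not reported here; both stay in the totals over members.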

Additional observations from a re-analysis of the deposited data

How the results depend on the processing

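No paired analysis was possible because the files hold a single list of peaks per treatment, and for the same reason no replicate could be left out. With the DMSO list's median score of 11.6 as a minimum in both lists, 139 DMSO and 97 Dox peaks remained on member genes, 5 members had DMSO peaks only and 1 had Dox peaks only, 50.4% of DMSO and 73.2% of Dox peaks were overlapped, and 82.1% of members with peaks in both lists had more bases under DMSO peaks. With equal list sizes 0 members had DMSO peaks only, and 75.4% of DMSO and 87.2% of Dox peaks were overlapped. Over all protein-coding genes these 2 overlap shares were 71.2% and 81.7%. For the other counts and shares of this paragraph the like values over all protein-coding genes are not given here. It thus cannot be said whether members differ in them. Without near-identical places 2 members had DMSO peaks only, Smarca5 being the second. When 50% of the peak had to be covered, 46.8% of DMSO peaks were overlapped, and when 50% of both peaks had to be shared, 41.6% of DMSO and 57.4% of Dox peaks were. A window of 400 nt around the stop codon held 14.6% of DMSO and 18.8% of Dox peaks. DRACH was found in 82.9% of DMSO and 86.2% of Dox peaks, and GGAC in 75.4% and 75.6% of peaks of 100 nt or more. The DRACH and window changes follow from wider definitions, and the 50% overlap rules can only lower a share. The GGAC shares of peaks of 100 nt or more leave out the shorter peaks. The cause of the other changes was not tested. The setting with peaks of 50 nt or more was chosen after seeing the data. Neither it nor counting only peaks on 1 gene, or only those with 50% of their bases in its exons, moved a recomputed share beyond its interval or a count by over 1.5 times.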

Other observations

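Coding sequence under the peaks of member genes was richer in purines than the rest of the coding sequence of the same transcripts. In the members with a DMSO peak, 57.0% of coding bases under DMSO peaks and 53.7% of those outside were A or G, and A alone made up 30.3% and 28.0%. Over all protein-coding genes with a DMSO peak the purine shares were 56.3% and 52.3%, so the difference was not particular to the members. In the Dox list the member shares were 56.4% and 54.4%, and those over all protein-coding genes are not given here. The printed Brd3 peak, with its runs of A and G, is an example.

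Smarca5-ps, a transcribed processed pseudogene of Smarca5 on chromosome 4, carried 1 DMSO peak and no Dox peak, and Smarce1-ps1, a processed pseudogene of Smarce1 on chromosome 8, carried none. Reads of a spliced mRNA and of such a copy can be hard to tell apart, and how the reads were divided between them is not given in the sources used here.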
